A study of Homo sapiens with 4 samples.

Results

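The genes described here are 31 direct targets and regulators of the transcription factor p53, chosen by symbol from a fixed list. All 31 were among the 19775 genes of the deposited expression table. Poly(A) RNA was measured by paired-end sequencing in H1, a wild-type human embryonic stem cell line, kept in E8 medium with 1 µM XMD892, an inhibitor of the kinase ERK5, for 12 h. E8 is a defined medium with insulin, FGF2 and TGFβ. There were 2 such libraries, replicate 2 with 20217648 reads on listed genes and replicate 1 with 18528689. The table holds 1 more column named for XMD892 at 12 h, with replicate number 3, and columns for later times; no label of the samples given here matches them and they were not used, so each n of 2 covers part of the 12 h XMD892 columns. A group in E8 alone for 12 h is also labelled, but the untreated columns carry another culture time, so it was not analysed here. The values below are therefore levels in treated cells and the spread between the treated libraries, and say nothing of what XMD892 changes. Separate cultures are not stated in the labels, so that spread may be technical, and 1 library on each side allows no test of a difference between them.

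p53 is a transcription factor that is kept scarce by the ubiquitin ligase MDM2 and is stabilised when DNA is damaged or ribosome assembly fails. It then binds its response elements and switches on genes that halt the cell cycle, repair DNA, adjust metabolism or trigger apoptosis. Among its targets are MDM2 and the phosphatase PPM1D, which shut the response down again. Human embryonic stem cells are known for dying readily when p53 is activated.

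A p53 response element is a pair of 10-base units with a short gap, each with the core CNNG. The RefSeq promoter table (GRCh38.p14) holds windows from 250 bases before to 50 bases after a start for 25 of the 31 genes, in 40 windows. Each window was searched on both strands, which read alike for this palindromic unit, for pairs with no more than 2 departures from the p53 consensus outside the core and no more than 13 bases between them. Such a pair was present in 6 of the 40 windows (15.0%), belonging to 5 genes, against 2.93% of all 35116 windows. Windows of 1 gene can overlap, and many of these genes are listed as p53 targets because a site is known, so the share is a description. The matches are shown because p53 is known to bind elements of this kind. They are hits of the search rule, and binding of p53 to them was not measured here. Those of MDM2, AEN, FAS and FDXR lie at the limit of 2 departures. Capitals mark the units that the rule picked and small letters any gap.
DDB2: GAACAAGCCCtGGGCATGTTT
MDM2: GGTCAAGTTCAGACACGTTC
AEN: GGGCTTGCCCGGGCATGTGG
FAS: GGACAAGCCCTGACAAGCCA
FDXR: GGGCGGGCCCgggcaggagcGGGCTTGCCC
The DDB2 match has no departure from the consensus and lies at chr11:47214979-47214999 on the plus strand, from base 6 to base 26 of the transcript. The MDM2 match lies at chr12:68808923-68808942 on the plus strand, upstream of the gene's internal start. AEN is matched at chr15:88621306-88621325 and FAS at chr10:88991309-88991328, both on the plus strand, and FDXR at chr17:74872996-74873025 on the minus strand. MDM2 and CDKN1A were among the genes that differed most between the libraries, and the 250 bases before 1 start of each are shown to set a window with a match beside one without. They are chr12:68808767-68809016 and chr6:36678464-36678713, both on the plus strand, with the matched units in capitals.
MDM2, internal start: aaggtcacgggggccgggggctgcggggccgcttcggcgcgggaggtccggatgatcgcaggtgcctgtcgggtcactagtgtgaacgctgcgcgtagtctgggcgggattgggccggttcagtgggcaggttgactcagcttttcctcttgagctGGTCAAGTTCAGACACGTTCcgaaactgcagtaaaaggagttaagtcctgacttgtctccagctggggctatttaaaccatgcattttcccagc
CDKN1A: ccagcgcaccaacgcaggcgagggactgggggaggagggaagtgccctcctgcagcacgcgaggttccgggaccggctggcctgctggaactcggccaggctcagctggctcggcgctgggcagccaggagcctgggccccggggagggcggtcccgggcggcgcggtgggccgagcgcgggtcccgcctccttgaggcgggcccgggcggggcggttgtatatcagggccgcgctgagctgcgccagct
The CDKN1A window held no pair under this rule, which says only that these letters are not in this window.

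Each level is an RPKM value, reads divided by the merged exon length and by the depth of the library, and means are given ± SD (n = 2 libraries). The p53 target genes had a median of 4.74 RPKM, against 4.17 RPKM over the 14495 protein-coding genes with a length. At least 1 RPKM was reached in both libraries by 26 of the 31 (83.9%), against 71.3% of the protein-coding genes. Together they took 0.118% of the reads in replicate 2 and 0.136% in replicate 1. A single gene, CCNG1, supplied 36.5% of the p53 target reads in replicate 2 and 29.6% in replicate 1. In the order of mean levels, 21 of the 30 neighbouring pairs overlapped in their values from the 2 libraries, so most of that order is not resolved. The pairs that did not overlap included CCNG1 above TRIAP1 and, at the low end, SPATA18 above FAS. TRIAP1 also stood clear of AEN, but with the length of the principal transcript they overlapped, at 37.1 ± 4.95 and 36.2 ± 8.42 RPKM. In bulk RNA, fewer expressing cells and less RNA per cell cannot be told apart.

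**Figure D1:**
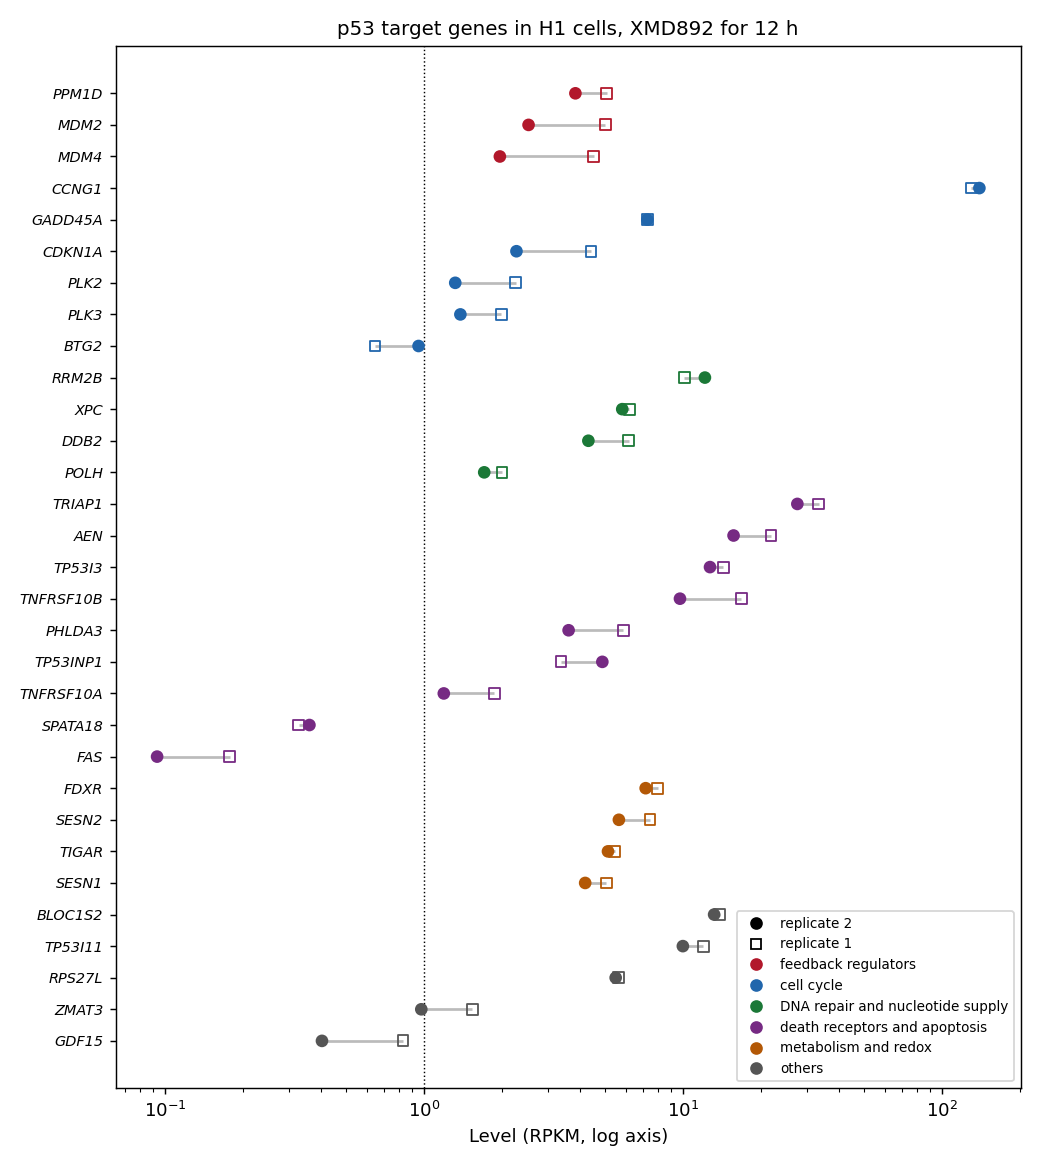
Level of each p53 target gene in RPKM on a log axis, grouped by role, in H1 cells with XMD892 for 12 h. Filled circles are replicate 2, open squares replicate 1, the grey bar joins them, and the dotted line is 1 RPKM; CCNG1 stands far above the others and FAS lowest.

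The feedback regulators were low to moderate and were all lower in replicate 2. MDM2, the ubiquitin ligase that marks p53 for degradation, stood at 2.53 RPKM in replicate 2 and 5.01 in replicate 1, on 679 and 1233 reads. MDM4, its partner that blocks the p53 activation domain, stood at 1.96 RPKM in replicate 2 and 4.51 in replicate 1, on 436 and 920 reads. PPM1D, a phosphatase that removes activating phosphates from p53 and its kinases, stood at 3.83 RPKM in replicate 2 and 5.06 in replicate 1. Per merged exon length, MDM2 and MDM4 overlapped at 3.77 ± 1.75 and 3.23 ± 1.80 RPKM. That overlap depends on the length used. With the principal transcript (by its APPRIS tag) in place of all merged exons, 2523 in place of 13284 bases, MDM2 stood at 19.8 ± 9.24 RPKM, while MDM4 stood at 3.54 ± 1.97. The MDM2 gene spans 68808176 to 68850686 of chromosome 12 and MDM4 spans 204516379 to 204558120 of chromosome 1, both on the plus strand (GRCh38).

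Among cell cycle targets, CCNG1, which encodes cyclin G1, a regulatory partner of the phosphatase PP2A, was the most abundant gene of all 31. It stood at 139 RPKM in replicate 2 and 129 in replicate 1, on 8708 and 7422 reads, which places its mean at percentile 98.8 of all genes with a length. The gene spans 163437569 to 163446151 of chromosome 5 on the plus strand. CDKN1A, which encodes the CDK inhibitor p21, was far lower at 2.27 RPKM in replicate 2 and 4.41 in replicate 1, on 140 and 249 reads. CDKN1A spans 36676460 to 36687339 of chromosome 6 on the plus strand. GADD45A, a stress sensor that binds CDK1 and PCNA, was nearly equal at 7.27 RPKM in replicate 2 and 7.28 in replicate 1. The polo-like kinases were low: PLK2 stood at 1.32 RPKM in replicate 2 and 2.25 in replicate 1, and PLK3 at 1.38 in replicate 2 and 1.99 in replicate 1. BTG2, an antiproliferative cofactor of mRNA deadenylation, stayed under 1 RPKM in both libraries, at 0.951 in replicate 2 and 0.646 in replicate 1.

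All 4 genes of DNA repair and nucleotide supply reached 1 RPKM in both libraries, as did 71.3% of protein-coding genes. RRM2B, the p53-induced subunit of ribonucleotide reductase that supplies deoxynucleotides for repair, led at 12.1 RPKM in replicate 2 and 10.1 in replicate 1. The nucleotide excision repair genes XPC and DDB2, which recognise damage, stood at 6.01 ± 0.271 and 5.23 ± 1.31 RPKM. POLH, the polymerase that copies past ultraviolet lesions, was lowest at 1.85 ± 0.207 RPKM. The lead of RRM2B depends on the length used. With the principal transcript in place of all merged exons, RRM2B stood at 12.5 ± 1.62 RPKM and DDB2 at 13.7 ± 3.42.

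The genes of apoptosis ran from TRIAP1, the gene next to CCNG1 in level, down to FAS, the last. TRIAP1, a small mitochondrial protein that restrains cell death, stood at 27.6 RPKM in replicate 2 and 33.3 in replicate 1. AEN, an exonuclease that digests DNA in dying cells, stood at 15.6 RPKM in replicate 2 and 21.8 in replicate 1. TP53I3, an oxidoreductase, stood at 12.7 RPKM in replicate 2 and 14.3 in replicate 1. Among the death receptors the order was the same in both libraries. TNFRSF10B, which encodes the TRAIL receptor DR5, stood at 9.71 RPKM in replicate 2 and 16.7 in replicate 1, on 1013 and 1599 reads. Its relative TNFRSF10A (DR4) stood at 1.19 RPKM in replicate 2 and 1.87 in replicate 1, with no overlap between these receptors. FAS, the receptor of FAS ligand, had 8 reads in replicate 2 and 14 in replicate 1, at 0.135 ± 0.0598 RPKM. PHLDA3, an inhibitor of AKT, stood at 4.74 ± 1.59 RPKM and TP53INP1, an autophagy and stress protein, at 4.12 ± 1.06. SPATA18, a mitochondrial quality control protein, was near the bottom at 0.344 ± 0.0231 RPKM, on 36 reads in replicate 2 and 30 in replicate 1.

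The metabolic targets had means between 4.62 and 7.56 RPKM per merged exon length. FDXR, a mitochondrial reductase needed for iron-sulfur cluster synthesis, stood at 7.56 ± 0.568 RPKM and SESN2, a leucine sensor that restrains mTORC1, at 6.54 ± 1.27. TIGAR, a phosphatase that lowers glycolytic flux, stood at 5.28 ± 0.216 and SESN1, a relative of SESN2, at 4.62 ± 0.612 RPKM. With the principal transcript's length FDXR stood at 14.5 ± 1.09 RPKM, and the means of the other metabolic targets lay between 6.54 and 7.62. Of the remaining genes, BLOC1S2, a subunit of an organelle-sorting complex, stood at 13.5 ± 0.472 RPKM and the membrane protein gene TP53I11 at 10.9 ± 1.39. RPS27L, a near relative of the ribosomal protein RPS27, stood at 5.56 ± 0.107 RPKM. ZMAT3, an RNA-binding zinc finger protein, stood at 1.25 ± 0.395 RPKM. GDF15, a secreted stress cytokine that is widely used as a p53 readout, was low at 0.403 RPKM in replicate 2 and 0.828 in replicate 1, on 17 and 32 reads.

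Reads on several of these genes may be shared or lost, since the sources used here do not give the strand setting of the counting. A pseudogene named after the gene is annotated for CCNG1, TRIAP1, BLOC1S2 and POLH (CCNG1P1, TRIAP1P1, BLOC1S2P1 and POLHP1) and could take some of their reads. Another protein-coding gene on the same strand overlaps 42.6% of the merged exon length of TIGAR, and an antisense gene overlaps 23.8% of that of XPC. For PHLDA3 a noncoding gene on the same strand overlaps 19.1%, and for FAS the exons of ACTA2 on the opposite strand overlap 8.93%. With the principal transcript's length the same reads are divided by fewer bases in many genes. RPKM was then higher for DDB2 at 13.7 ± 3.42, BLOC1S2 at 31.8 ± 1.11 and AEN at 36.2 ± 8.42, among others. The median over the 31 genes was then 6.74 RPKM, against 6.37 over protein-coding genes. With merged exons these medians were 4.74 and 4.17 RPKM, so the rise was not particular to the 31.

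The libraries were compared on normalized counts, which are the authors' values, as log2(value + 1) in replicate 2 minus that in replicate 1. All 31 genes passed the minimum mean of 10 normalized counts that was used for this. Of the 31 genes 21 were lower in replicate 2, against 47.9% of the 16148 genes tested. Their median difference was -0.17, against 0.02 over all genes tested. At least 1.5-fold apart were 10 of the 31 genes (32.3%), against 26.6% of all genes tested, so the share is near the background. Of the 31, 2 were at least 1.5-fold higher in replicate 2 (12.9% of all genes tested) and 8 in replicate 1 (13.7% of all genes tested). With total reads as the scale the split was 0 and 10, with 17.1% of all genes at least 1.5-fold higher in replicate 1, and the median of all genes was -0.08. Relative to that median the p53 target genes were at -0.19 on either scale.

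MDM4 had the widest gap, 2.15-fold higher in replicate 1 (log2 difference -1.10). The exact binomial 95% interval of its log2 ratio, which covers counting error alone, ran from -1.27 to -0.94. MDM2 was 1.85-fold higher in replicate 1, with an interval from -1.02 to -0.75, and CDKN1A 1.81-fold, with an interval from -1.16 to -0.55. TNFRSF10B was 1.61-fold higher there, PLK2 1.59-fold and PHLDA3 1.51-fold. The gaps of GDF15 (1.91-fold) and FAS (1.78-fold) rest on few reads, and the interval of FAS reached from -2.29 to 0.52. Toward replicate 2, BTG2 was 1.58-fold higher on 53 reads in replicate 2 and 33 in replicate 1, and TP53INP1 was 1.55-fold higher on 559 and 355. TNFRSF10A and ZMAT3 lay just inside the threshold, at -0.54 and -0.55. The smallest log2 differences were those of XPC at 0.01, TIGAR at 0.02, BLOC1S2 at 0.03 and FDXR at -0.05, and their intervals included equal levels. The counting interval excluded equal levels for 20 of the 31 genes, 4 higher in replicate 2 and 16 higher in replicate 1, against 58.1% of all genes tested. By role, the feedback regulators had a median of -0.88, the apoptosis genes -0.38, the cell cycle genes -0.16, the remaining genes -0.16, the metabolic genes -0.11 and the DNA repair genes -0.06.

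**Figure D2:**
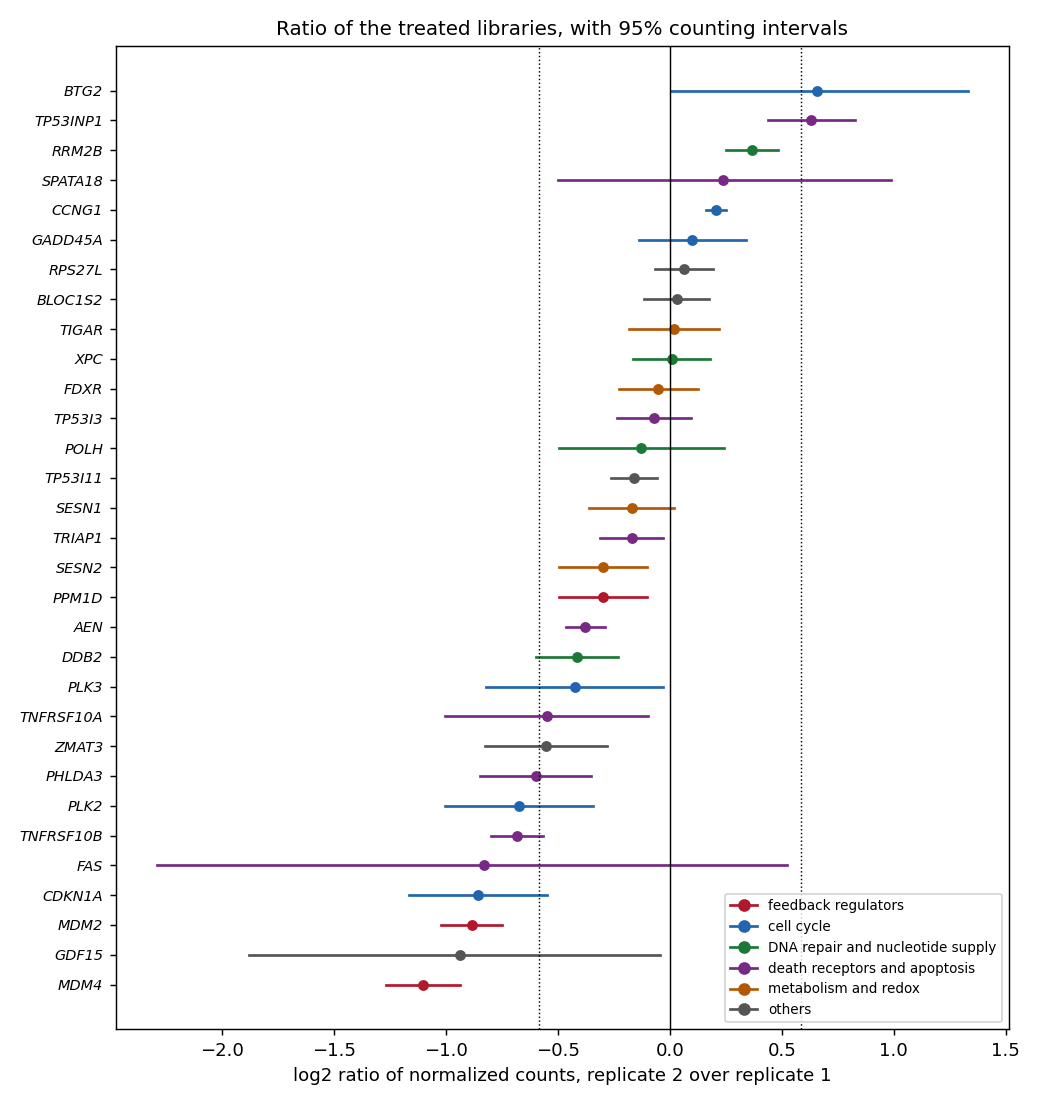
Log2 ratio of normalized counts, replicate 2 over replicate 1, for each p53 target gene, coloured by role. Bars are exact binomial 95% counting intervals and dotted lines mark 1.5-fold; MDM4, GDF15, MDM2 and CDKN1A lie farthest to the left and BTG2 and TP53INP1 farthest to the right.

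**Figure D3:**
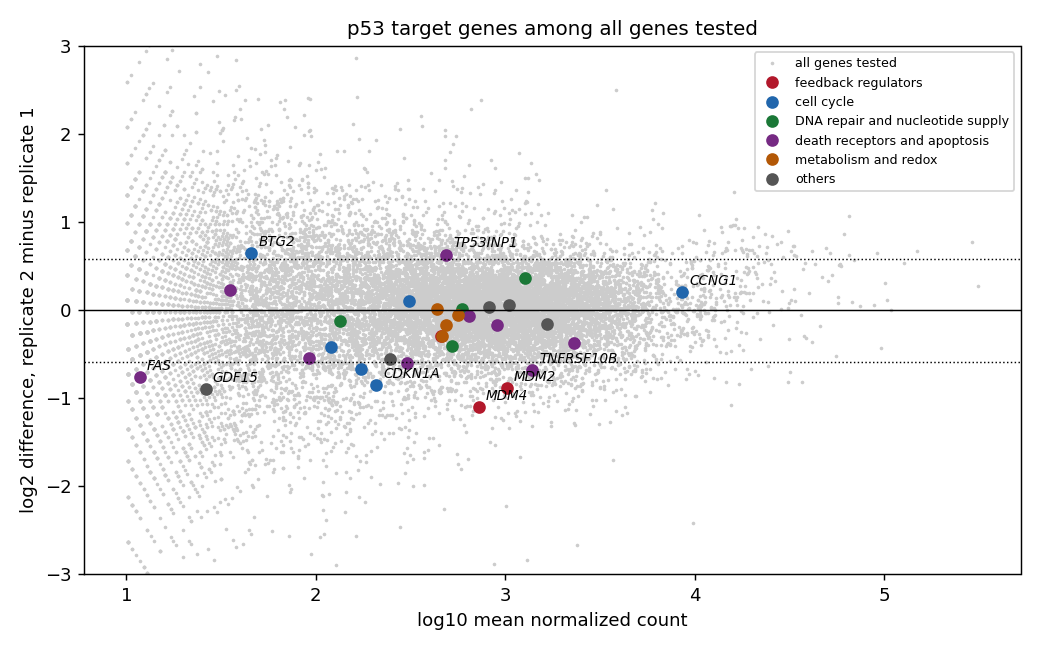
Log2 difference between the treated libraries against log10 mean normalized count, with p53 target genes coloured by role over all 16148 genes tested in grey; 61 genes lie outside the axis limits of 3. Dotted lines mark 1.5-fold. Of the p53 target genes, MDM4, MDM2, CDKN1A and TNFRSF10B are among those below the lower line, and CCNG1 lies farthest right.

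Cell type markers also differed between these libraries. All 12 pluripotency markers reached 1 RPKM in both, but so did 71.3% of protein-coding genes, so this alone does not establish what the cells are. Their median level was 129 RPKM, against 3.87 over all genes tested. At least 1.5-fold apart were 4 of the 12, against 26.6% of all genes tested. POU5F1 stood at 1430 RPKM in replicate 2 and 734 in replicate 1. The others ran the other way, with DNMT3B at 245 RPKM in replicate 2 and 426 in replicate 1, PODXL at 104 in replicate 2 and 179 in replicate 1, and SALL4 at 14.3 in replicate 2 and 27.8 in replicate 1. Of 8 mesenchymal markers 5 were listed, and COL3A1, LUM and DCN were not. The 5 summed to 74.4 RPKM in replicate 2, of which THY1 gave 64.2, and to 110 in replicate 1, of which THY1 gave 33.7. Of the 5, 4 were higher in replicate 1. TAGLN stood at 5.34 RPKM in replicate 2 and 62.2 in replicate 1, and COL1A1 at 0.987 in replicate 2 and 7.85 in replicate 1. COL1A2 stood at 3.84 RPKM in replicate 2 and 6.01 in replicate 1, and PDGFRB had 16 reads in replicate 2 and 31 in replicate 1. THY1 alone of the 5 was higher in replicate 2, at 64.2 RPKM there and 33.7 in replicate 1. Of 5 neural markers 4 were listed, led by NES at 89.7 RPKM in replicate 2 and 170 in replicate 1, and of 5 endoderm markers GATA4 alone was listed, on 4 reads in replicate 2 and 2 in replicate 1. Mitochondrially encoded protein genes took 5.34% of reads in replicate 2 and 4.81% in replicate 1. The part of these differences in the gaps of the p53 targets was not tested.

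The rest of the pathway was described from lists of genes that are not among the 31. The p53 relative TP73 stood at 0.352 ± 0.0433 RPKM, and TP63 was not listed. Of 13 kinases, acetyltransferases and partners of p53, all reached 1 RPKM in both libraries, as did 71.3% of protein-coding genes. The highest were DAXX, a histone chaperone that binds MDM2, at 30.7 ± 6.19 RPKM, the checkpoint kinase CHEK1 at 14.5 ± 0.496 and the p53-binding protein TP53BP2 at 12.9 ± 0.869. CREBBP, an acetyltransferase that acts on p53, was 3.93 RPKM in replicate 2 and 9.27 in replicate 1, a log2 difference of -1.14. All 7 ubiquitin enzymes and cofactors were listed, but RFWD2 had no exon length, on 1036 reads in replicate 2 and 763 in replicate 1. The 6 with a length were led by TRIM28, a corepressor that assists MDM2, at 296 ± 104 RPKM. The deubiquitinases USP10 at 41.0 ± 11.6 and USP7 at 34.6 ± 8.31 came next.

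The most abundant death effectors among p53 targets act at the mitochondria. PMAIP1, which encodes the BH3-only protein NOXA, stood at 64.2 RPKM in replicate 2 and 36.7 in replicate 1. BAX and BAK1, which form pores in the mitochondrial outer membrane, stood at 36.7 ± 4.35 and 26.6 ± 1.90 RPKM. TNFRSF10C, a decoy TRAIL receptor, had 11 reads in replicate 2 and 28 in replicate 1, a log2 difference of -1.30. Of 12 genes on this list 11 were listed, with a median difference of -0.04. At least 1.5-fold apart were 2 of them, against 26.6% of all genes tested. Of 36 further p53 targets 34 were listed. Their median was 4.9 RPKM over the 33 with an exon length, which SCO2 lacked. Per merged exon length, PCNA, the replication clamp, was highest at 196 ± 8.49 RPKM. The phosphatase PTP4A1 at 24.8 ± 5.58 and ISCU, a scaffold for iron-sulfur clusters, at 15.0 ± 0.352 RPKM came next. With the principal transcript's length ISCU stood above PTP4A1, at 66.9 ± 1.57 and 27.8 ± 6.25 RPKM. The median difference of these 34 was -0.12. At least 1.5-fold higher were 1 gene in replicate 2 and 8 in replicate 1, against 12.9% and 13.7% of all genes tested. TRIM22, an interferon-induced protein, was at least 2-fold apart, with 70 reads in replicate 2 and 244 in replicate 1.

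**Figure D4:**
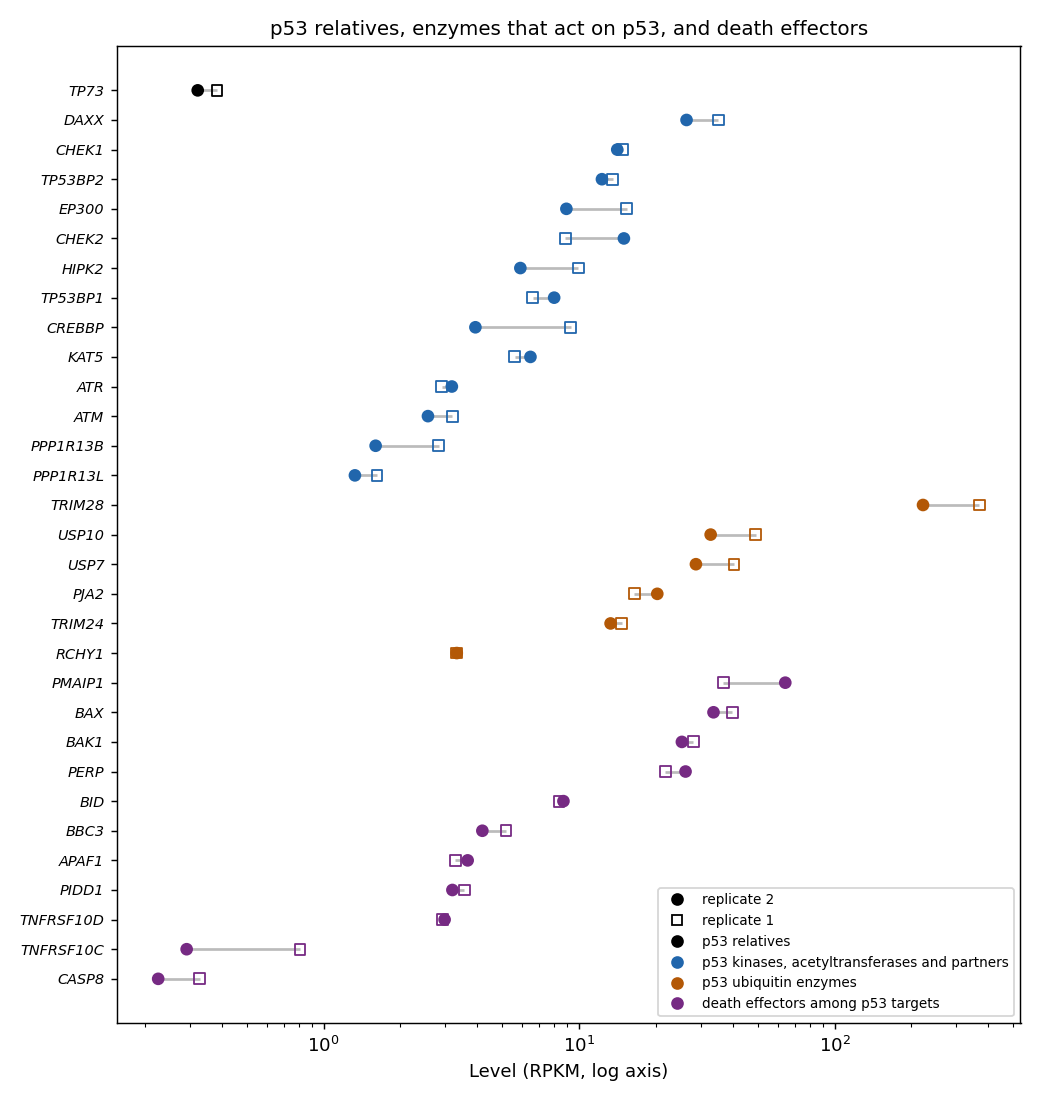
Level in RPKM on a log axis of p53 relatives, enzymes and partners that act on p53, and death effectors among p53 targets. Filled circles are replicate 2 and open squares replicate 1; TRIM28 is highest, at 222 RPKM in replicate 2 and 369 in replicate 1.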

How the data were processed

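The authors deposited 1 table of normalized signal, gene counts divided by 1 size factor per library, as the values themselves show: 100% of values were whole multiples of 1 step per column within 0.01 reads. Trimmomatic 0.36, STAR, featureCounts 1.5.3, DESeq2 1.26.0 and hg38 are named without roles, per the submitters' processing notes; the sources used here do not give the annotation, strand setting or gene filter. Columns were matched to samples by treatment, time and replicate number; 7 of 9 columns matched no sample and were not used, so the planned test of XMD892 against E8 was not run. Whole reads were recovered by dividing by the step (size factors 0.948 for replicate 2 and 0.932 for replicate 1). RPKM used merged exon lengths from GENCODE release 29 on GRCh38, with exact symbol matches for 19262 genes. Differences used a pseudocount of 1, a minimum mean of 10 and a fold of 1.5. Intervals are exact (Clopper-Pearson, 95%) and cover counting error alone, since reads carry no molecular identifiers. Python 3.11.15, SciPy 1.17.1 and edgeR 4.0.16 (TMM scale) were used, and the scripts were tested on simulated data. Every member of the list is named; of the pathway lists, the 3 highest and those at least 2-fold apart, and some items are not reported here. The members and lists were chosen with earlier results of these data known, and the shift of p53 targets between the libraries had been seen before.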

Additional observations from a re-analysis of the deposited data

How the results depend on the processing

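The median difference of the p53 target genes kept its sign under all 5 alternatives run: -0.27 with total reads as the scale, -0.18 with the TMM scale, and -0.17 with a pseudocount of 5, with no minimum and with a minimum of 50, which leaves 27 genes. The count of the 31 genes at least 1.5-fold apart was 10 under total reads (27.1% of all genes), TMM (26.7%) and no minimum (33.6%, so above the share of the 31), and 9 with a pseudocount of 5 (24.6%). With a minimum of 50 it was 7 of 27 (19.3% of all genes). At a fold of 2 it was 1, MDM4, against 10.9% of all genes tested. Of 151 single-gene values under alternatives 2 lay outside the counting interval of their gene, AEN (-0.48) and CCNG1 (0.10), both with total reads. Signs turned in 6 cases, all of genes within 0.10 of equal. The median level was 4.30 to 5.43 RPKM when 1 library was left out, and 6.74 with the length of the principal transcript, an alternative chosen after seeing the data. No paired analysis was possible because the untreated columns matched no sample. The tests of XMD892 against E8 with all their alternatives were not run. Depth limits FAS, GDF15, SPATA18 and BTG2, which had fewer than 100 reads in both libraries.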

Other observations

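Genes of the amino acid stress response, which shares SESN2 with the p53 targets and is driven by the transcription factor ATF4, were all listed (10 of 10). Per merged exon length, the highest were ATF4 at 140 ± 1.43 RPKM and the serine synthesis enzymes PSAT1 at 114 ± 23.0 and PHGDH at 50.6 ± 10.2 (SD, n = 2). ASNS, asparagine synthetase, followed at 26.2 ± 0.566 RPKM, and the other 6 lay between 0.734 RPKM for SLC7A11 and 3.91 for ATF3. The order of the first 3 depends on the length. With that of the principal transcript PHGDH stood at 180 ± 36.2 RPKM, ATF4 at 175 ± 1.78 and PSAT1 again at 114 ± 23.0. The list's median difference between the libraries was 0.01, with 5 genes higher in each. At least 1.5-fold higher were 1 gene in replicate 2 and 2 in replicate 1, against 12.9% and 13.7% of all genes tested. VLDLR, a lipoprotein receptor, was the one higher in replicate 2, with 375 reads there and 172 in replicate 1.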
